A study of Homo sapiens with 60 samples.

Results

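The 7 subunits of respiratory complex I that human mitochondrial DNA encodes, MT-ND1, MT-ND2, MT-ND3, MT-ND4L, MT-ND4, MT-ND5 and MT-ND6, were followed in A549 cells, an established line of non-small-cell lung carcinoma. They were taken by name from a table of 60675 gene identifiers, all 7 were found, and all 7 passed the filter on low counts. RNA was sequenced after 24 h with extract or vehicle, to record how gene expression in this line responds to hot-water extracts of Korean herbal medicines. The single herbs Bupleuri Radix, Cimicifugae Rhizoma and Citri Unshius Pericarpium and the mixtures Banhasasim-tang and Yijung-tang were given at 500 µg/mL (high), 100 µg/mL (medium) and 20 µg/mL (low). Aconiti Lateralis Radix Preparata (processed aconite root) was given at 360, 72 and 14.4 µg/mL, since extracts with an IC20 below 500 µg/mL were used at that concentration and at dilutions of it. Each of these 18 doses had 3 libraries, as had the vehicle, 0.1% DMSO on the sample labels, although the design text gives 2%. A further mixture, Bojungikgi-tang, had 1 library at each of 500, 100 and 20 µg/mL. Whether the extract samples held DMSO is not given, and nothing states that replicates came from separate cultures. The p-values below therefore set differences between groups only against the scatter of such libraries, and that scatter may be technical.

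Complex I is the entry enzyme of the respiratory chain: it takes electrons from NADH, passes them to ubiquinone and pumps protons across the inner membrane. The mitochondrially encoded subunits form the core of its membrane arm. MT-ND2, MT-ND4 and MT-ND5 are the large antiporter-like proton-pumping subunits, MT-ND1 lines the entry to the ubiquinone site, and MT-ND3, MT-ND4L and MT-ND6 are small subunits between them. Mitochondrial DNA is read as long precursors from both strands, which are cut into messenger, transfer and ribosomal RNAs, so that levels of single mRNAs depend on processing and stability as well as on transcription. Of the 7 genes only MT-ND6 lies on the minus strand.

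Sequence shared between neighbours and copies bears on how reads can be assigned to them. MT-ND4L (chrM:10470-10766 on GRCh38, plus strand) and MT-ND4 (chrM:10760-12137) are translated from 1 bicistronic message and overlap by 7 bases, shown in capitals in the last 40 bases of MT-ND4L and the opening 40 bases of MT-ND4.
MT-ND4L end: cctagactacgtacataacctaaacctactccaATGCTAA
MT-ND4 start: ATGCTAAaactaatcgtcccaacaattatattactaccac
MT-ND5 (chrM:12337-14148, plus strand) and MT-ND6 (chrM:14149-14673, minus strand) end tail to tail with no base between them. Their last 40 bases are given 5′ to 3′, each on its own strand, with the stop codon in capitals.
MT-ND5 end: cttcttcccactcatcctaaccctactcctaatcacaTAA
MT-ND6 end: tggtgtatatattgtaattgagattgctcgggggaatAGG
RNA that runs on past the end of MT-ND5 is antisense to MT-ND6. The library kit keeps strand, but the strand setting of the counting is not given in the sources used here, so reads of MT-ND6 and of RNA antisense to it cannot be told apart. MT-ND2 (chrM:4470-5511) has a nuclear copy, MTND2P28 (chr1:629640-630683), which is 98.4% identical to it with 17 mismatches in 1042 aligned bases. The stretch around the mismatch nearest the 5′ end shows how little separates them, with the differing base in capitals.
MT-ND2: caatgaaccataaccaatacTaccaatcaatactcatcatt
MTND2P28: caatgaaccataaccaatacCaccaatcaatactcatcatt
MT-ND1 (chrM:3307-4262) and MT-ND3 (chrM:10059-10404) are the other members on the plus strand. Sequences and coordinates are from GENCODE 29 on GRCh38.

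Total counts were 17793655 to 30188211 in the 60 libraries, and the lowest count of any member in the 57 replicated libraries was 5136 (MT-ND6), so counting error is small beside the spread between replicates. Levels are given as CPM after TMM scaling, that is, counts relative to the scaled total of a library. Replicate counts always differed beyond sampling noise (57 pairs, with a chi-square of at least 2.03 for each degree of freedom). Keratin genes of this line were present in all 60 libraries (KRT8 at 2521 to 4637 CPM, here without TMM scaling). On that scale the alveolar genes SFTPA1 and NKX2-1 were at or near 0, and of 7 genes of other cell types COL1A1 alone was above 10 CPM. Citri medium replicate 1 stood apart, with the lowest MT-ND4L level of the 48 libraries without Aconiti (307.02 CPM, against a median of 1033 CPM), the highest MT-ND3 level (2589 CPM, against a median of 1384 CPM) and the lowest length balance (2.48, against a median of 3.38), which is the mean log2 CPM of genes longer than 6 kb minus that of genes shorter than 1.5 kb. Vehicle carries a sample code of its own in the labels, so in comparisons with vehicle the code and the extract cannot be told apart, whereas the doses of 1 extract share a code, as do Aconiti and Bupleuri.

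Per kilobase of transcript, MT-ND4 was the most abundant member in vehicle cells and MT-ND6 the least. MT-ND4 averaged 5512 CPM per kb, MT-ND1 4248, MT-ND3 3645, MT-ND2 3586, MT-ND4L 3494, MT-ND5 1467 and MT-ND6 631.04 CPM per kb (n = 3). In CPM, not divided by length, the vehicle libraries lay between 6816 and 8587 for MT-ND4 and between 304 and 378 for MT-ND6. The 7 members together made up 2.11% ± 0.166 of all counts in vehicle and 35.5% ± 1.29 of the counts of the 13 mitochondrial mRNAs (SD, n = 3).

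Aconiti was the extract under which these mRNAs changed, and they did not change together. At the medium dose MT-ND5 rose 5.72-fold and MT-ND6 6.11-fold, MT-ND2 rose less, and MT-ND4L fell. At the high dose MT-ND3, MT-ND4L and MT-ND4 fell, MT-ND4L by a factor of 2.22, whereas MT-ND5 and MT-ND6 were higher than in vehicle, by 2.15-fold and 2.17-fold. These are bulk libraries, in which fewer cells with a transcript and less of it per cell cannot be told apart. In the edgeR quasi-likelihood test over 17268 genes, 5 of 7 members passed an adjusted p of 0.05 at the high dose (2 higher and 3 lower), where 32.7% of all genes tested did, 17% higher and 15.7% lower. At the medium dose 4 of 7 passed (3 higher and 1 lower) where 2.29% of all genes did, 1.64% higher and 0.654% lower. At the low dose 0 passed by edgeR, where 0.0695% of all genes did, and 0 by DESeq2, although MT-ND1 and MT-ND2 were below 0.05 before adjustment.

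**Figure D1:**
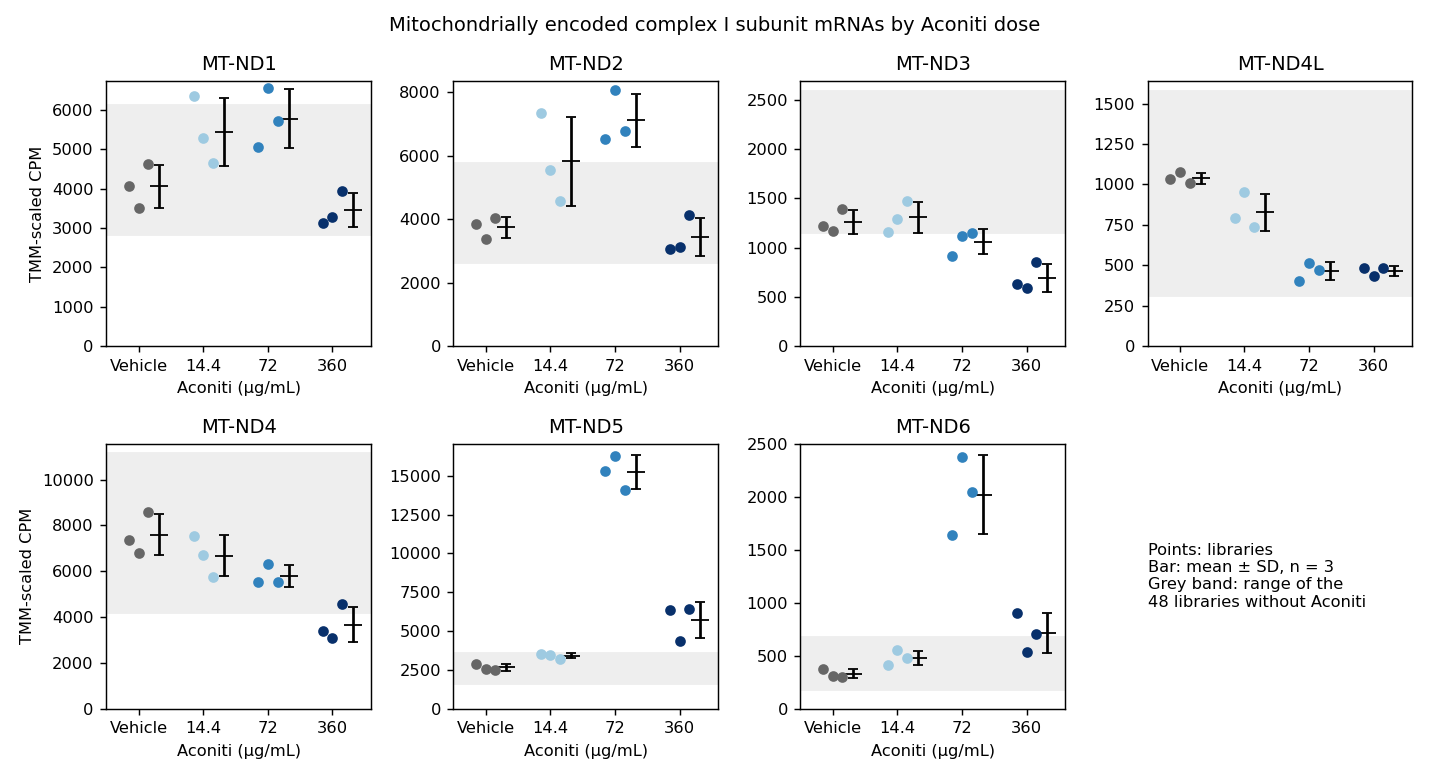
TMM-scaled CPM of the 7 mRNAs in the libraries of vehicle and of Aconiti at 14.4, 72 and 360 µg/mL, in 1 panel per gene with linear axes from 0; points are libraries, bars the mean ± SD of 3, and the grey band the range of the 48 libraries without Aconiti. At 72 µg/mL the MT-ND5 and MT-ND6 points lie far above the band, and at 360 µg/mL the MT-ND3 points lie below it.

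MT-ND5, the proton-pumping subunit at the far end of the membrane arm, gave 15287, 16282 and 14086 CPM in the Aconiti medium libraries, against 2883, 2574 and 2518 CPM in the vehicle libraries. The log2 fold was 2.52 ± 0.21 (SE), a 5.72-fold rise, with an edgeR adjusted p of 7.59e-12. In the Aconiti high libraries it had 6356, 4341 and 6430 CPM, against the same vehicle values, a log2 fold of 1.10 ± 0.20 (adjusted p = 3.93e-05). The low dose gave 3531, 3467 and 3229 CPM, and its log2 fold over vehicle of 0.36 ± 0.20 did not pass (adjusted p = 0.915). All 9 Aconiti libraries lay above all 3 vehicle libraries. The highest value in the 48 libraries without Aconiti was 3581 CPM (Banhasasim low replicate 2), which every medium and high library exceeded and no low library did.

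MT-ND6, a small membrane subunit, followed MT-ND5. It gave 1640, 2382 and 2049 CPM in the Aconiti medium libraries, against 378, 312 and 304 CPM in the vehicle libraries, a log2 fold of 2.61 ± 0.30 (6.11-fold; adjusted p = 2.27e-08). At the high dose it had 910, 537 and 708 CPM, and the log2 fold over vehicle was 1.12 ± 0.28 (adjusted p = 0.00198). The low dose gave 416, 554 and 476 CPM, all above the vehicle libraries, with a log2 fold of 0.54 ± 0.28 that did not pass (adjusted p = 0.915). The ratio of MT-ND6 to MT-ND5 in CPM was 0.133 ± 0.022 at the medium dose and 0.126 ± 0.017 at the high dose, and 0.124 ± 0.0058 in vehicle (SD, n = 3 each). The ratios of the 3 groups overlap, and for MT-ND6 reads of its own strand and of the opposite one cannot be told apart.

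MT-ND4, the most abundant member and another proton-pumping subunit, changed the other way. The Aconiti high libraries had 3374, 3093 and 4562 CPM, against 7383, 6816 and 8587 CPM in the vehicle libraries, a log2 fold of -1.05 ± 0.21 (adjusted p = 0.000112), with no overlap between the groups. At the medium dose MT-ND4 had 5522, 6335 and 5525 CPM, below every vehicle library, but the log2 fold of -0.39 ± 0.21 did not pass (adjusted p = 0.399). MT-ND4L, encoded on the same message, fell at both doses. It had 405, 515 and 471 CPM in the medium libraries and 486, 431 and 484 CPM in the high libraries, against 1032, 1074 and 1007 CPM in the vehicle libraries. Its log2 fold over vehicle was -1.16 ± 0.26 at the medium dose (adjusted p = 0.00524) and -1.15 ± 0.26 at the high dose (adjusted p = 0.000477).

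The 2 genes of the bicistronic message did not move in proportion at the medium dose. The ratio of MT-ND4L to MT-ND4 in CPM was 0.0733, 0.0814 and 0.0853 in the medium libraries, against 0.140, 0.158 and 0.117 in the vehicle libraries, with no overlap. In the high libraries it was 0.144, 0.139 and 0.106, which overlaps the vehicle libraries. MT-ND4L is only 297 bases long against 100-base paired reads, and the library that stood apart in length balance, Citri medium replicate 1, had the lowest ratio of all (0.0445). Cimicifugae low replicate 2, with a length balance of 2.87, had a ratio of 0.0796, within the range of the Aconiti medium libraries. The Bupleuri libraries, of the same sample code as Aconiti, all had 0.0938 or more. In the Aconiti medium libraries the length balance was 3.105 to 3.40, against 3.36 to 3.52 in the vehicle libraries, and its part in the ratio was not tested. With that balance as a covariate MT-ND4L kept its call at both doses.

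MT-ND3, a small subunit next to the ubiquinone site, fell at the high dose. It had 628, 593 and 855 CPM in the Aconiti high libraries, against 1223, 1164 and 1396 CPM in the vehicle libraries, a log2 fold of -0.87 ± 0.17 (adjusted p = 0.000101). The medium libraries, with 915, 1119 and 1146 CPM, also lay below all vehicle libraries, but the log2 fold of -0.25 ± 0.17 did not pass (adjusted p = 0.514).

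MT-ND2, a proton-pumping subunit, passed at the medium dose and at neither other dose against vehicle. It had 6523, 8072 and 6758 CPM in the Aconiti medium libraries, against 3836, 3357 and 4019 CPM in the vehicle libraries, a log2 fold of 0.93 ± 0.20 (adjusted p = 0.00407). The low libraries, with 7337, 5539 and 4568 CPM, were also all above the vehicle libraries, with a log2 fold of 0.64 ± 0.20 that did not pass (adjusted p = 0.673). In the high libraries it had 3066, 3108 and 4127 CPM, which overlaps vehicle. The nuclear copy MTND2P28 had 261 ± 33.8 CPM in the medium libraries, against 141 ± 11.4 CPM in the vehicle libraries (SD, n = 3 each), and counts of nuclear copies came to at most 4.03% of those of MT-ND2 in a library. With these counts added to the members, MT-ND2 kept its call. MTND2P28 itself had a log2 fold of 0.88 ± 0.25 at the medium dose, so adding counts this small could hardly change the call.

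MT-ND1, which lines the entry to the ubiquinone site, did not pass at any Aconiti dose against vehicle. It had 5049, 6542 and 5706 CPM at the medium dose and 3137, 3276 and 3940 CPM at the high dose, against 4057, 3516 and 4612 CPM in the vehicle libraries. The log2 fold was 0.51 ± 0.19 at the medium dose (adjusted p = 0.192), with no overlap of the groups, and -0.23 ± 0.19 at the high dose (adjusted p = 0.368), with overlap. The 95% interval at the high dose ran from -0.62 to 0.15.

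The response was not one-way with dose. Between Aconiti high and Aconiti medium, which share a sample code, 6 of 7 members were lower at the high dose, where 12.5% of all genes passed, 6.24% higher and 6.21% lower. The log2 fold of high over medium was -1.41 ± 0.21 for MT-ND5, -1.49 ± 0.29 for MT-ND6, -1.05 ± 0.20 for MT-ND2, -0.74 ± 0.19 for MT-ND1, -0.66 ± 0.21 for MT-ND4 and -0.62 ± 0.17 for MT-ND3. MT-ND4L was the exception, with a log2 fold of 0.01 ± 0.25 and a 95% interval from -0.50 to 0.52. Calls of 3 members did not hold when single libraries were left out. The adjusted p of MT-ND1 was 0.0596 without medium replicate 2. For MT-ND3 it was 0.0582 without high replicate 1, 0.115 without high replicate 2, 0.0591 without medium replicate 2 and 0.0676 without medium replicate 3. For MT-ND4 it was 0.0937 and 0.186 without high replicates 1 and 2, and 0.0657, 0.126 and 0.0557 without medium replicates 1, 2 and 3. Hence 3 members passed without medium replicate 2, and 4 when high replicate 1, high replicate 2 or medium replicate 3 was left out.

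Between Aconiti medium and Aconiti low, 2 of 7 members passed, where 0.527% of all genes did, 0.429% higher and 0.0984% lower. MT-ND5 had a log2 fold of medium over low of 2.16 ± 0.21 (adjusted p = 1.63e-09) and MT-ND6 one of 2.07 ± 0.29 (adjusted p = 7.91e-06). MT-ND4L did not pass (-0.84 ± 0.26, unadjusted p = 0.0021, adjusted p = 0.236), but it did without the Citri medium library that stood apart (adjusted p = 0.0244), with length balance in the model (0.0153) and in a fit of only the groups compared (0.0464). Between Aconiti high and Aconiti low, 6 of 7 members passed, where 22.7% of all genes did, 11.4% higher and 11.3% lower. MT-ND5 was higher (log2 fold 0.74 ± 0.20, adjusted p = 0.00547). MT-ND1, MT-ND2, MT-ND3, MT-ND4L and MT-ND4 were lower at the high dose, with log2 folds of -0.65 ± 0.19, -0.76 ± 0.20, -0.92 ± 0.17, -0.83 ± 0.26 and -0.86 ± 0.21. MT-ND6 did not pass (0.58 ± 0.28, adjusted p = 0.141), but it did without replicate 1 of the Yijung and Banhasasim groups (0.59, adjusted p = 0.0412). The call of MT-ND1 was lost without high replicate 1 (adjusted p = 0.0508), high replicate 2 (0.0598) or low replicate 1 (0.0831). That of MT-ND2 was lost without low replicate 1 (0.0684), and that of MT-ND4L without high replicate 2 (0.0721) or low replicate 2 (0.0766). Without either high replicate 2 or low replicate 1, 4 members passed.

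Bupleuri shares its sample code with Aconiti, and the same split of the members was seen against it. Between Aconiti high (360 µg/mL) and Bupleuri high (500 µg/mL), doses that differ, 5 of 7 members passed, where 23.1% of all genes did, 11.2% higher and 11.8% lower. MT-ND3 had a log2 fold of Aconiti over Bupleuri of -1.05 ± 0.17, MT-ND4L of -1.23 ± 0.26, MT-ND4 of -1.33 ± 0.21, MT-ND5 of 1.12 ± 0.20 and MT-ND6 of 0.96 ± 0.28. MT-ND4 had 3374, 3093 and 4562 CPM in the Aconiti high libraries, against 8784, 8377 and 10582 CPM in the Bupleuri high libraries. MT-ND6 lost its call without Aconiti high replicate 1 (adjusted p = 0.0630). MT-ND1 gained one with length balance in the model (log2 fold -0.47, adjusted p = 0.0459). It also did without replicate 1 of the Yijung and Banhasasim groups (-0.43, adjusted p = 0.0492). The change from low to high dose was itself tested between the extracts, and it was more negative with Aconiti for 3 of 7 members, where 9.95% of all genes passed, 5.03% higher and 4.92% lower. The difference of log2 folds, Aconiti minus Bupleuri, was -0.91 ± 0.24 for MT-ND3 (adjusted p = 0.00923), -1.12 ± 0.36 for MT-ND4L (adjusted p = 0.0366) and -0.98 ± 0.29 for MT-ND4 (adjusted p = 0.0232). These 3 calls depended on single libraries. Without Aconiti high replicate 2 none of them held, with adjusted p-values of 0.0531, 0.0996 and 0.0975. MT-ND3 alone passed without Aconiti low replicate 1, Bupleuri high replicate 3 or Bupleuri low replicate 2. MT-ND4L also lost its call without Aconiti high replicate 3, Aconiti low replicate 2, Bupleuri high replicate 2 or Bupleuri low replicate 3, and MT-ND4 without Aconiti high replicate 1 (adjusted p of 0.0502 to 0.103). Without Aconiti low replicate 3, MT-ND2 passed as well (-0.90, adjusted p = 0.0411), as it did without replicate 1 of the Yijung and Banhasasim groups (-0.76, adjusted p = 0.0357). With length balance in the model MT-ND5 passed in the other direction (0.79, adjusted p = 0.00558).

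Seen along the mitochondrial genome, the changes fell into stretches. From MT-CO1 to MT-ND4 most mRNAs were lower with Aconiti, whereas MT-ND5, MT-ND6 and MT-CYB at the far end were higher. Of the 6 mitochondrial mRNAs outside complex I, MT-CYB, the cytochrome b of complex III, rose at both doses, with log2 folds over vehicle of 1.44 ± 0.17 at the medium dose and 1.37 ± 0.17 at the high dose. The other 5, which encode subunits of cytochrome oxidase and ATP synthase, were all called lower at the high dose and 4 of them at the medium dose, MT-ATP8 being the one that did not pass (-0.87 ± 0.25, adjusted p = 0.0589). MT-CO3, the nearest upstream mRNA of MT-ND3, had a log2 fold of -1.22 ± 0.13 at the high dose. The 12S and 16S ribosomal RNAs at the start of the genome, MT-RNR1 and MT-RNR2, rose with log2 folds of 4.71 ± 0.20 and 2.26 ± 0.086 at the high dose. At the medium dose these were 3.91 ± 0.20 and 1.44 ± 0.084. MT-RNR1 was called higher at the low dose too (1.23 ± 0.18, edgeR adjusted p = 0.000156), and MT-RNR2 was not (0.065 ± 0.082, adjusted p = 0.915). Genes counted on the mitochondrial genome took 16.5 to 18.95% of all counts in the Aconiti high libraries, against 7.91 to 8.54% in the vehicle libraries. The 13 mitochondrial mRNAs alone took 4.20% ± 0.479 at the high dose, against 5.92% ± 0.258 in vehicle. With mitochondrial genes left out of the scaling no direction of a called member changed.

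**Figure D2:**
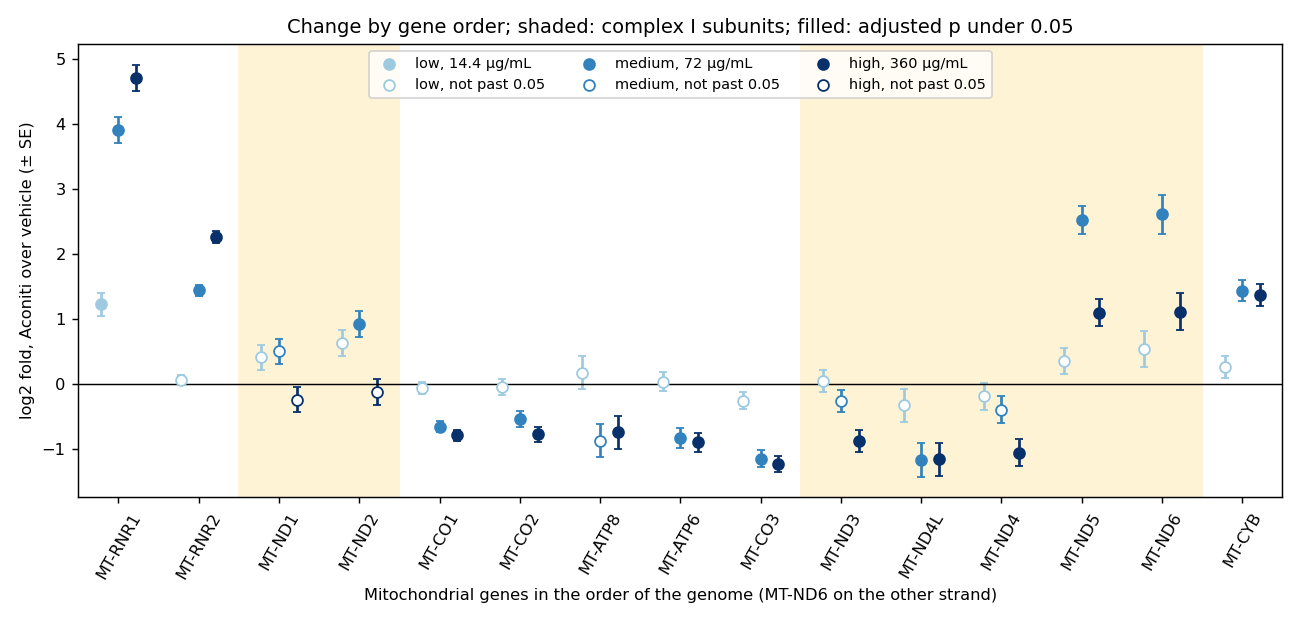
Log2 fold of Aconiti at 14.4, 72 and 360 µg/mL over vehicle, with its SE, for the 15 mitochondrially encoded ribosomal and messenger RNAs in the order of the genome; shading marks the 7 complex I subunits and filled points an adjusted p under 0.05. At 72 and 360 µg/mL the points lie below 0 from MT-CO1 to MT-ND4 and above 0 from MT-ND5 to MT-CYB.

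As a share of the 13 mitochondrial mRNAs, MT-ND5 took 24.8, 22.3 and 20.8% in the Aconiti medium libraries and 14.5, 10.6 and 12.1% in the high libraries, against 4.91, 4.70 and 4.14% in the vehicle libraries. MT-ND4 took 8.60% ± 0.396 at the medium dose and 7.95% ± 0.565 at the high dose, against 13.04% ± 0.937 in vehicle (SD, n = 3 each). The 7 members together took 55.6% ± 2.36 at the medium dose and 39.4% ± 1.73 at the high dose, against 35.5% ± 1.29 in vehicle. Shares sum to a whole, so a rise of 1 gene lowers the others. The ratio of MT-ND5 to MT-ND4 was 0.467 to 0.561 at the low dose, 2.55 to 2.77 at the medium dose and 1.40 to 1.88 at the high dose. In the 48 libraries without Aconiti it was 0.229 to 0.391, so that no Aconiti library of any dose overlapped them.

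An exact two-sided permutation test of the slope of the log2 share on dose order, over 9 libraries of an extract and adjusted over 13 genes in 6 extracts, called no member in any extract. The smallest adjusted p of a member was 0.0929 (MT-ND4 with Aconiti, unadjusted p = 0.00238, slope -0.24 per dose step), where the smallest p the test allows is 0.00119. MT-CYB with Aconiti had that smallest p, and its adjusted p in this permutation test was also 0.0929. A gene could therefore pass only if other tests gave p-values about as low, however well its share followed the dose order. That no member was called thus cannot show that a dose trend was absent. MT-ND5 had a slope of 0.56 with an adjusted p of 0.614. The slope takes no account of a peak at the medium dose. With the spread between the dose means in its place, a statistic chosen after the data were seen, MT-ND4L, MT-ND5 and MT-ND6 passed with Aconiti (exact permutation test, adjusted p = 0.0310 each), and no member did in another extract. The 6 other mitochondrial mRNAs passed with Aconiti at the same adjusted p, so the result is not particular to the members. The unadjusted p of each was 0.00357, the lowest this statistic allows.

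**Figure D3:**
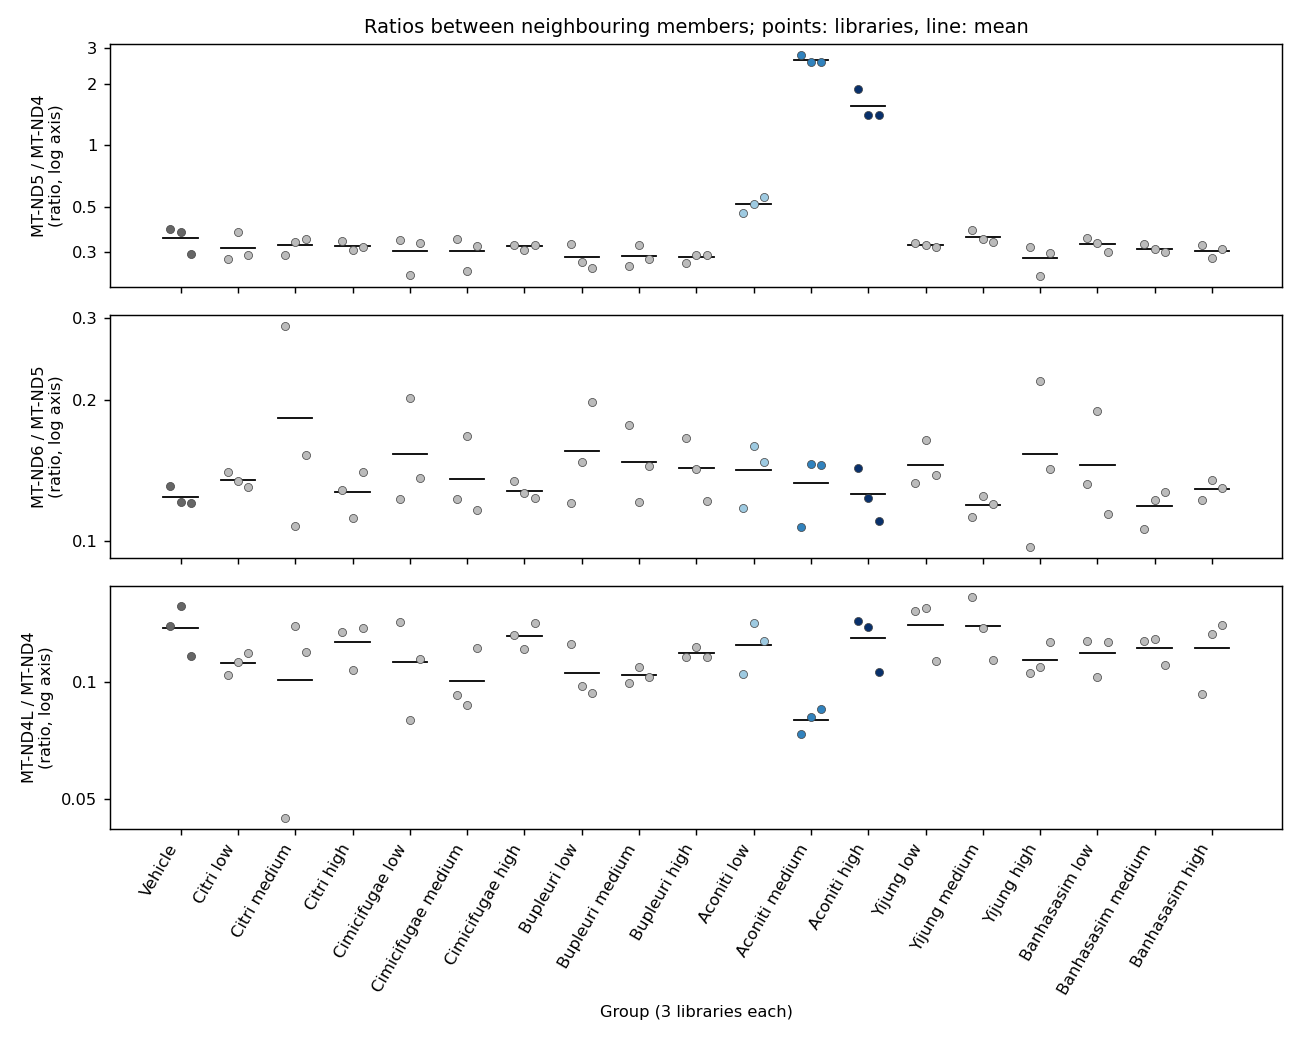
Ratios of the CPM of neighbouring members, MT-ND5 over MT-ND4, MT-ND6 over MT-ND5 and MT-ND4L over MT-ND4, in the 57 libraries of vehicle and 18 doses on logarithmic axes; points are libraries and lines group means. MT-ND5 over MT-ND4 is above the other groups at all 3 Aconiti doses, MT-ND6 over MT-ND5 is not, and the lowest point of MT-ND4L over MT-ND4 is Citri medium replicate 1, followed by Aconiti medium replicate 1.

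The nuclear partners of these subunits changed less. Of the 7 nuclear core subunits, 3 rose at Aconiti high against vehicle, NDUFS7 (log2 fold 0.47 ± 0.16), NDUFV1, which binds NADH (0.39 ± 0.13), and NDUFS8 (0.38 ± 0.15), and none passed at the medium or low dose. The median of the 7 was 0.11 at the high dose, against -0.0046 for all genes. Of 30 accessory subunits 1 passed at the high dose, NDUFA7 (0.54 ± 0.16), with a median of 0.16 over the list. Of 16 assembly factors 2 fell, NUBPL (-0.21 ± 0.079), which delivers iron-sulfur clusters to complex I, and NDUFAF7 (-0.20 ± 0.068), with a median of 0.08.

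Genes that serve mitochondrial RNA were called in both directions at Aconiti high. Of 12 genes for transcription and DNA maintenance 2 rose and 3 fell, among them TFB1M, a methyltransferase of the 12S RNA (9.37 ± 0.715 CPM, against 5.68 ± 0.0822 CPM in vehicle), TOP1MT, the mitochondrial topoisomerase (log2 fold 0.50 ± 0.071), and MTERF1, a factor that binds downstream of the ribosomal RNA genes (-0.54 ± 0.076). Of 20 genes for RNA processing, stability and decay 2 rose and 9 fell. FASTKD5, needed to process mitochondrial precursors at sites with no transfer RNA, had 38.1 ± 0.424 CPM, against 57.9 ± 0.420 CPM in vehicle (log2 fold -0.60 ± 0.059, adjusted p = 3.38e-11). It was also the only one of the 20 to pass at the medium dose (-0.23 ± 0.058, adjusted p = 0.0188), where 2.29% of all genes did. TRMT10C, a subunit of mitochondrial RNase P, fell (-0.40 ± 0.10), and FASTK, which the stability of MT-ND6 mRNA is known to need, rose (0.38 ± 0.11). Of 7 tested regulators of mitochondrial biogenesis ESRRA rose (0.34 ± 0.11) and 3 fell, with GABPA (-0.48 ± 0.12) and NRF1 (-0.30 ± 0.074) among them. Each of these counts stands beside 32.7% of all genes called in that comparison. Against Aconiti low, which shares the sample code, 0 of 7 nuclear core subunits and 0 of 30 accessory subunits passed at the high dose, and 1 of 16 assembly factors was lower, where 22.7% of all genes were called (11.4% higher and 11.3% lower). The RNA lists gave the same counts there as against vehicle, 2 higher and 3 lower of 12 and 2 higher and 9 lower of 20, and 2 of 7 biogenesis regulators were lower. Some markers moved at Aconiti high against vehicle, where 32.7% of all genes were called. Of 9 markers of the epithelial line 2 rose, KRT19 and ALDH3A1 (log2 folds 0.53 ± 0.14 and 0.51 ± 0.12). The other 7 were not called, and the median of the 9 was -0.0058. Of 7 genes of other cell types 2 were tested and 2 fell. COL1A1 was 1 of them, with 21.6 ± 2.01 CPM, against 32.2 ± 0.627 CPM in vehicle. The part of these markers in the results was not tested.

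With the other 5 extracts 0 members passed in 26 comparisons, 15 of them against vehicle, by edgeR or by DESeq2. Of these 182 tests 7 were below 0.05 before adjustment, and the lowest adjusted p was 0.168. The share of all genes called against vehicle was 7.09% at Yijung high, 7.85% at Yijung medium, 1.96% at Cimicifugae high, 0.712% at Bupleuri high and 0.185% at Banhasasim high. It was 0.0463% at Citri high, 0.0347% at Cimicifugae medium, 0.0174% at Citri medium, 0.0116% at Cimicifugae low and Yijung low, 0.00579% at Citri low, and 0% at the medium and low doses of Bupleuri and Banhasasim. Between high and low dose it was 4.93% for Yijung, 1.34% for Cimicifugae, 0.353% for Bupleuri, 0.127% for Banhasasim and 0.0232% for Citri, and with Yijung 1.08% between high and medium and 6.31% between medium and low. Between extracts at the high dose it was 4.79% for Yijung against Banhasasim and 0.689% for Citri against Cimicifugae, and for the difference of their high-to-low changes 1.31% for Yijung minus Banhasasim and 0.0579% for Cimicifugae minus Citri. The log2 folds over vehicle lay between -0.41 (MT-ND4L at Citri medium) and 0.47 (MT-ND2 at Yijung high). Over these 15 comparisons, which share the same vehicle libraries, MT-ND3 and MT-ND2 were above 0 in all 15, MT-ND1 in 14, MT-ND4 and MT-ND6 in 13, MT-ND5 in 7 and MT-ND4L in 5. Their 95% intervals reached at most -0.92 (MT-ND4L) and 0.94 (MT-ND6), so that changes beyond 2-fold lie outside them.

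**Figure D4:**
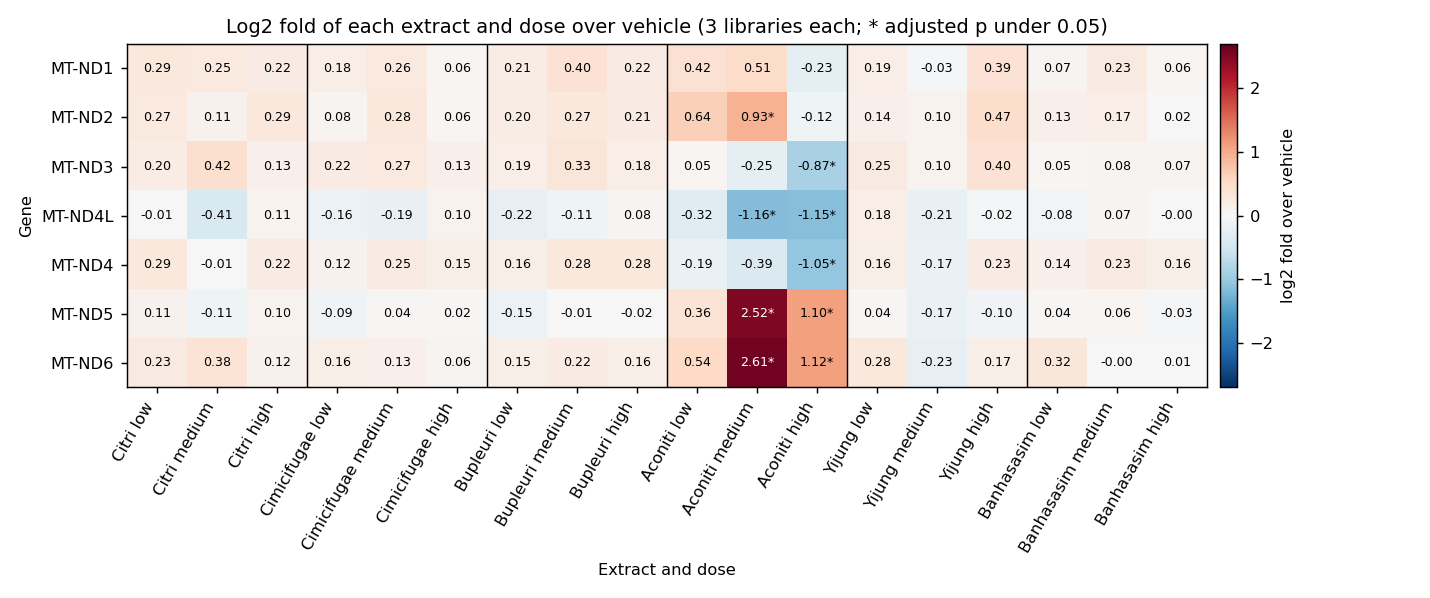
Log2 fold over vehicle of each member (rows, in genome order) at the low, medium and high dose of 6 extracts (columns), with 3 libraries per group; red is higher and blue lower than vehicle, and a star marks an adjusted p under 0.05. Stars appear only in the Aconiti medium and high columns.

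At Yijung high MT-ND2 had its highest log2 fold outside Aconiti and the lowest adjusted p of those 182 tests. MT-ND2 had 4559, 5758 and 5235 CPM in the Yijung high libraries, against 3836, 3357 and 4019 CPM in the vehicle libraries, and the log2 fold of 0.47 ± 0.20 did not pass (adjusted p = 0.168) although the groups did not overlap. MT-ND3 had 1554, 1754 and 1670 CPM, against 1223, 1164 and 1396 CPM in vehicle, with a log2 fold of 0.40 ± 0.17 (adjusted p = 0.177). MT-ND1 had a log2 fold of 0.39 ± 0.19 (adjusted p = 0.253). Among the 6 other mitochondrial mRNAs MT-ATP8 (0.88 ± 0.25) and MT-CO2 (0.45 ± 0.12) were called higher at Yijung high. Of 12 genes for transcription and DNA maintenance 1 rose, TFAM, which packages mitochondrial DNA and starts its transcription (0.17 ± 0.051). Of 20 genes for RNA processing, stability and decay 1 rose, FASTKD2 (0.19 ± 0.054). Of 7 nuclear core subunits, 30 accessory subunits, 16 assembly factors and 7 tested biogenesis regulators 0 passed. These counts stand beside 7.09% of all genes called in that comparison. Of the 9 epithelial line markers 1 was called lower there, CDH1 (E-cadherin, log2 fold over vehicle -1.01 ± 0.13). ALDH3A1 was called higher (0.71 ± 0.12), and the other 7 were not called. Of 2 tested genes of other cell types 1 was called lower, COL1A1 (-1.09 ± 0.075). The part of these markers in these values was not tested. MT-ND5 was at -0.10 ± 0.20 (adjusted p = 0.852). In a fit of the 6 samples alone MT-ND2 and MT-ND3 passed at Yijung high (adjusted p = 0.0385 each). MT-ND2 passed there with the length balance as a covariate (adjusted p = 0.0468), and MT-ND3 in the shared fit without Citri medium replicate 1 (adjusted p = 0.0423).

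At Citri medium, MT-ND3 had 2589, 1143 and 1337 CPM, and its log2 fold over vehicle of 0.42 ± 0.17 did not pass (adjusted p = 0.189). It passed without Citri medium replicate 2 (adjusted p = 0.0210) or replicate 3 (adjusted p = 0.0393), and in both cases replicate 1, the library that stood apart, stayed in the group. Replicate 1 of Yijung medium and of Banhasasim low held 5 of the 7 lowest levels outside Aconiti. Yijung medium replicate 1 had 4177 CPM of MT-ND4, 1614 CPM of MT-ND5 and 182 CPM of MT-ND6, the lowest of the 48 libraries, and Banhasasim low replicate 1 had the lowest MT-ND1 (2818 CPM) and MT-ND2 (2610 CPM). Both carry the same sample code.

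The order of the groups by level differed between the members. For MT-ND5 the top 3 of 19 groups were Aconiti medium, high and low (means of 15218, 5709 and 3409 CPM), which did not overlap each other. Citri low came next with 2876 ± 368 CPM, and all later neighbours overlapped in their libraries, down to Yijung medium with 2362 ± 754 CPM. For MT-ND6 Aconiti medium (2023 ± 372 CPM) stood above all others, and from Aconiti high on each group overlapped the next. For MT-ND4 Aconiti high (3676 ± 780 CPM) was the lowest, below Aconiti medium (5794 ± 468 CPM) with no overlap, and Citri low was the highest (9258 ± 1642 CPM). MT-ND3 was lowest in Aconiti high (692 ± 142 CPM) and next lowest in Aconiti medium (1060 ± 126 CPM), and the 17 other groups overlapped from each to the next. For MT-ND4L Aconiti medium (464 ± 55.6 CPM) and Aconiti high (467 ± 31.4 CPM) were lowest and overlapped. For MT-ND1 and MT-ND2 each group overlapped the next, with Aconiti medium highest (5766 ± 748 and 7117 ± 835 CPM) and Aconiti high lowest (3451 ± 429 and 3434 ± 601 CPM).

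Over the 19 group means of log2 CPM, MT-ND5 and MT-ND6 had a Pearson correlation of 0.98, MT-ND3 and MT-ND4 of 0.89, and MT-ND4L and MT-ND6 of -0.81. Without the 3 Aconiti groups these values were 0.30, 0.32 and -0.17 over 16 groups, whereas MT-ND1 and MT-ND2 had 0.85 over 19 and 0.84 over 16 groups. These are descriptions, and all groups share the scaling of their libraries. Among 9352 nuclear genes of at least 10 CPM, those most like the mean log2 CPM of the 7 members over 19 groups were POLR2J3 (0.68), FAM222B (0.64), STAU1 (0.60), PIGC (0.58) and ARL15 (0.56), and those least like it NME6 (-0.71), ANKRD36 (-0.68) and PNPLA8 (-0.63). Without the 3 Aconiti groups the values were 0.55, 0.52, 0.65, 0.39 and 0.58 for the 5 genes most like it, in the same order, and -0.44, -0.45 and -0.32 for the 3 least like it. These genes are the extremes of 9352 correlations over few groups, and the mean joins members that changed in opposite directions with Aconiti. The 16 groups are among the 19 by which the genes were picked, so neither set of values tests a link.

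Bojungikgi, with 1 library per dose, allows no test. The difference of log2(CPM + 1) from the vehicle mean was above 0 for all 7 members at all 3 doses. It lay between 0.16 (MT-ND5) and 0.54 (MT-ND6) at the low dose, between 0.18 (MT-ND4L) and 0.52 (MT-ND4) at the medium dose and between 0.10 (MT-ND4L) and 0.61 (MT-ND2) at the high dose. MT-ND5 had 2975, 3052 and 3219 CPM at the low, medium and high dose, against 2521 to 2887 CPM in the vehicle libraries on the same scale. All 3 lie far below the MT-ND5 levels of Aconiti medium.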

How the data were processed

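RNA with a RIN above 7 was made into libraries with the MGIEasy RNA Directional kit and read as 100-base pairs, per the labels' protocols. The submitters' processing notes name FastQC 0.11.9, Trim Galore 0.6.5, STAR 2.7.3a, RSEM 1.3.3 and GRCh38; the gene annotation release and the strand setting are not given in the sources used here. The authors deposited RSEM expected counts per gene, without normalization, in a table with 269 sample columns, of which 60 match these samples and 209 were not used. Of all values 9.37% were not whole, since RSEM divides reads that fit several genes, MT-ND1 and MT-ND2 in 59 libraries among them. All were rounded to whole counts.

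edgeR 4.0.16 (R 4.3.3) fitted its quasi-likelihood model to 57 libraries in 19 groups, with TMM scaling, a low-count filter by group (17268 genes left) and Benjamini-Hochberg adjustment over all genes in each of 34 comparisons, at a threshold of 0.05. SE is the log2 fold divided by the square root of F. Bojungikgi stayed outside the fit. Symbols, lengths and sequences came from GENCODE 29. In data simulated for Aconiti high against vehicle (16900 genes), 81 of 100 genes changed 1.5-fold and 98 of 100 changed 2-fold were found, with 8 false calls. The changed genes were drawn at random and were few, whereas 32.7% of all genes were called in the real comparison. These rates therefore do not give the recovery of the members. Depth is in the report; counting error is small for these genes, and replicate scatter sets the precision. Samples were not paired by replicate number: in none of 31 comparisons were all 3 correlations of deviations over 0.1. Single ones reached 0.349 (replicate 1, Aconiti high against medium), so this rule does not show that replicate numbers share nothing.

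Alternatives were other scalings, DESeq2 1.42.0, no filter, fewer samples, a block, a length covariate and added nuclear copies. From each other list up to 3 called genes with the largest log2 fold and at least 5 CPM were named; likeness is Pearson's r over group means of nuclear genes of at least 10 CPM. The members and lists were chosen with earlier results of these data known.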

Additional observations from a re-analysis of the deposited data

Results flagged for a closer look

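The change from the low to the high dose differed between Aconiti and Bupleuri for 3 members, by the test of the difference itself, which 9.95% of all genes passed. The log2 difference, Aconiti minus Bupleuri, was -0.91 for MT-ND3, -1.12 for MT-ND4L and -0.98 for MT-ND4, each more negative with Aconiti. The extracts share a sample code, but their high doses were 360 and 500 µg/mL and their low doses 14.4 and 20 µg/mL. None of the 3 calls held without Aconiti high replicate 2 (adjusted p = 0.0531, 0.0996 and 0.0975). With length balance in the model MT-ND5 passed in the other direction (0.79, adjusted p = 0.00558).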

How the results depend on the processing

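For the 31 member folds called, 345 of 346 values under alternatives other than leaving out a library kept their direction and their call. The exception came from fitting only the groups compared (MT-ND3, Aconiti high over medium, log2 fold -0.60, adjusted p = 0.0619). Leaving out single libraries, 10 of the 31 folds lost their call at least once, in 31 cases in all, each named in the report, and 0 changed direction. Leaving out 1 library, the members called numbered 3 to 6 for Aconiti high against medium (6 with all libraries), 0 to 4 for the difference of Aconiti and Bupleuri (3 with all) and 0 to 1 for Citri medium against vehicle (0 with all). Yijung high against vehicle gave 1 member without the Citri medium library that stood apart, 1 with length balance and 2 with only the groups compared, and Yijung high against Banhasasim high 1 with only the groups compared, against 0 in each as reported. With 16S rRNA as denominator the dose trend passed for 5 members with Aconiti and 1 with Bupleuri, against 0 each. The 16S rRNA itself had 22721, 59097 and 104111 CPM at the low, medium and high Aconiti dose. With Aconiti this ratio therefore cannot show whether a member fell. With any difference among doses, added after seeing the data, 3 members passed with Aconiti, against 0, as did the 6 other mitochondrial mRNAs. The causes were not tested.

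At Aconiti medium against vehicle further members passed in some fits, MT-ND1 and MT-ND4 with only the groups compared (adjusted p = 0.0261 and 0.0264) and MT-ND3 with length balance (adjusted p = 0.0169). MT-ND1 passed at Aconiti high against the mean of the low-dose groups (log2 fold -0.46, adjusted p = 0.0143). Over all genes, 396 were called at Aconiti medium against vehicle, but 188 with no filter, 647 without the Citri medium library, 1049 with length balance and 1130 with only the groups compared. For Aconiti high against low 3922 were called, but 6117 with length balance and 1501 with only the groups compared.

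What libraries of the same replicate number share is not given. With a replicate block 5 members were called at Aconiti high against vehicle and 4 at Aconiti medium, as without it. With the block within sample code, added after seeing the data, 4 were called in place of 3 for the difference of Aconiti and Bupleuri. In every Yijung and Banhasasim group replicate 1 had the lowest share of members in mitochondrial mRNA counts. It was 30.9% at Yijung low, against 37.0 and 39.0%, and 35.3% at Banhasasim high, against 35.7 and 36.4%. Counting error is small for these genes at this depth.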
